A study of Mus musculus with 3 samples.

Results

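Outer bulge hair follicle stem cells were followed in 3 single-cell RNA libraries of mouse back skin. They were taken as barcodes with at least 500 genes and under 15% mitochondrial UMIs (unique molecular identifiers, the counted transcript molecules), in which Krt5, Krt14 and Krt15 together made up at least 0.3% of UMIs and Ptprc, the pan-leukocyte gene, had none. Each also held at least 1 UMI of 3 or more of the 6 outer bulge markers Krt24, Postn, Lgr5, Cd34, Dkk3 and Sfrp1, and of fewer than 3 of Fgf18, Ramp1, Sncg, Myoc and Smoc1, which set apart another bulge population. This gave 5039 barcodes of the 24884 that passed the filters on genes and mitochondrial UMIs: 3171 of 9869 in the 2-week knockout, 1159 of 9993 in the 3-week knockout and 709 of 5022 in the control. The genes of this rule chose the members, and their levels are given as description only.

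The study set an inducible knockout of Piezo1, a mechanically gated cation channel, against a control, with 1 library per group. The 2-week knockout carried K5-Cre-er, Piezo1 fl/fl and Td fl/+ and was taken on postnatal day 62. The 3-week knockout carried K5-Cre-er, Piezo1 fl/fl and Td fl/fl and was taken on day 71. The control carried K5-Cre-er, Piezo1 fl/+ and Td fl/+, was taken on day 62, and so shared the driver and 1 floxed Piezo1 allele with the knockouts. All were C57BL/6 mice that received tamoxifen between days 48 and 52, and cells were freed from back skin by collagenase I, followed by trypsin. The keratin 5 (K5) driver acts in basal keratinocytes of the epidermis and hair follicle, not in the bulge alone. How many animals a library holds is not given in the sources used here. Age and the second floxed Td allele cannot be told apart from time after tamoxifen in the 3-week library, which has no control of its age.

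The bulge is the part of the outer root sheath below the sebaceous gland where hair follicle stem cells rest between hair cycles. Its outer layer holds slow-cycling cells with Cd34, Lgr5, Krt15 and the transcription factors Sox9, Lhx2, Nfatc1 and Tbx1. BMP signals and Wnt inhibitors hold these cells at rest, while Wnt, FGF and BMP antagonists from the niche start growth of a new hair. The cells sit on a basement membrane through integrins and hemidesmosomes, and attach to neighbours, nerves and the arrector pili muscle through matrix that they secrete.

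The deposited matrices held 11144, 11186 and 5621 barcodes for the 2-week knockout, the 3-week knockout and the control, with 97960352, 118610125 and 62967542 UMIs. Median depth per outer bulge barcode was 7018, 7033 and 9049 UMIs in that order, and the members summed to 27559706, 12621185 and 8449736 UMIs. Ribosomal protein genes took 22.6%, 24.8% and 18.9% of the members' UMIs and mitochondrial genes 2.84%, 3.8% and 3.62%. Of the filtered barcodes, 21 were shared between the knockouts, 13 between the 2-week knockout and the control and 17 between the 3-week knockout and the control, and 1 of these, in the 2-week knockout and the control, was an outer bulge barcode in both. With 1 library per group no difference below has a replicate check, and no p-value is given. All intervals are 95% intervals that cover counting error only. Both knockouts were set against the same control library, so their ratios are not independent of each other.

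Levels are given as CPM, a gene's UMIs divided by all UMIs summed over the members of a library and multiplied by 1e6. The 6 markers of the rule were found at the following levels. Krt24 stood at 282 CPM in the 2-week knockout, 188 CPM in the 3-week knockout and 214 CPM in the control. Cd34, the surface sialomucin used to sort bulge cells, stood at 363, 189 and 297 CPM in the same order. Lgr5, the R-spondin receptor of follicle stem cells, stood at 224, 192 and 200 CPM, close together in all 3 libraries. Postn, the matrix protein periostin, reached 1677, 802 and 1241 CPM, Dkk3 216, 128 and 185 CPM, and Sfrp1, a secreted Wnt inhibitor, 311, 175 and 222 CPM. Every marker was lowest in the 3-week knockout and highest in the 2-week knockout.

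The number of markers found in a barcode differed between the libraries. Of the members, 17.1% in the 2-week knockout, 34.4% in the 3-week knockout and 23.8% in the control held just 3 markers, and 33.7%, 21.3% and 28.6% held all 6. Members with 3 markers had median depths of 6105, 11236 and 10720 UMIs, and keratinocyte barcodes with 2 markers, just outside the rule, had 10055.5, 13706 and 15235 UMIs. Across that border Lgr5 stood at 90.8, 61.4 and 82.8 CPM with 3 markers and at 20.2, 13.3 and 12.1 CPM with 2 markers. Cd34 stood at 127, 61.8 and 66.1 CPM with 3 markers and at 25.5, 12.4 and 16.8 CPM with 2. Because the mix of marker numbers differs, ratios below were also taken with the groups of 3, 4, 5 and 6 markers weighed equally, and such a value is given where it changes a statement.

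**Figure D1:**
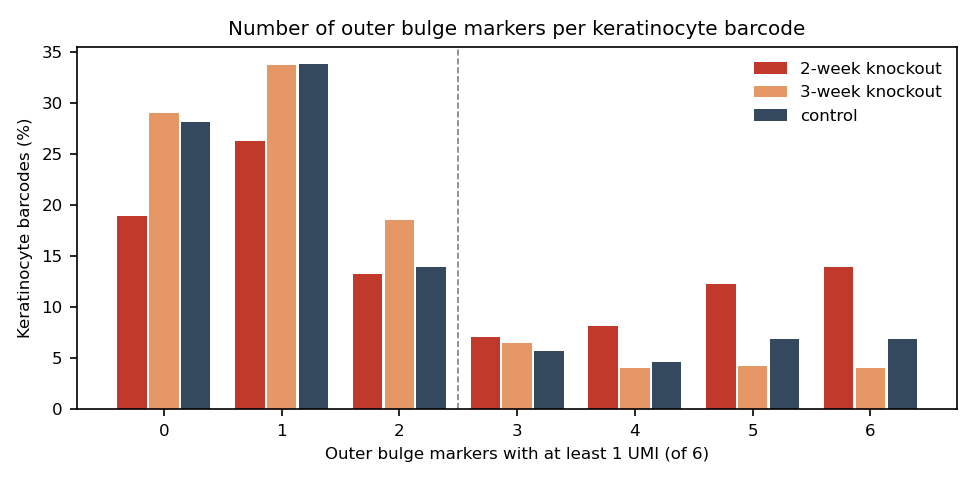
Keratinocyte barcodes of each library, other than the Fgf18 and Myoc bulge barcodes, by the number of the 6 outer bulge markers found in them, in percent; the dashed line marks the limit of 3 markers. In the 2-week knockout 14.0% held all 6 markers, against 3.99% in the 3-week knockout and 6.91% in the control.

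Genes that the rule did not read were used to check the label, and known bulge genes among them were high in the members. Set against the other keratinocyte barcodes of the same library, 95 of 2600 genes (3.65%) were at least 2-fold higher in the members in all 3 libraries. Barcodes chosen by expression also differ in the genes that go with it, so this is a description of the members and not a test. Among transcription factors, Lhx2, which maintains the bulge, stood at 276, 226 and 170 CPM in members of the 2-week knockout, the 3-week knockout and the control, and at 25, 12.9 and 9.31 CPM in their other keratinocytes. Tbx1, a T-box factor of self-renewing bulge cells, stood at 105, 81.2 and 58 CPM in members and at 5.16, 3.34 and 1.77 CPM in other keratinocytes. Id1, a target of BMP signals, stood at 1662, 1079 and 912 CPM in members and at 327, 202 and 93.9 CPM in other keratinocytes. All 3 factors were far above the other keratinocytes in each library.

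Secreted and surface genes set the members apart from the other keratinocytes as well. That set leaves out the Fgf18 and Myoc bulge barcodes, so it does not tell genes of the outer bulge from genes of the bulge in general. S100a4, a calcium-binding protein, stood at 1640, 849 and 1239 CPM in members and at 59.9, 51 and 42.3 CPM in other keratinocytes; its 3′ end is shared with 1 other annotated gene, so its reads are uncertain. Angptl7, a secreted angiopoietin-like protein, stood at 132, 77.7 and 92.7 CPM in members and at 3.18, 1.26 and 1.15 CPM in other keratinocytes. Grem1, a secreted BMP antagonist, stood at 295, 164 and 190 CPM in members and at 23.2, 8.37 and 11.6 CPM elsewhere. The Wnt receptor Fzd2 stood at 235, 154 and 164 CPM in members and at 13.6, 10.7 and 7.38 CPM elsewhere, and the cytokine receptor Il31ra at 95.9, 63.1 and 84.1 CPM in members and at 4.37, 1.5 and 1.09 CPM elsewhere. The 20 genes that led by this measure also held Pdzrn4, Trabd2b, Kcnk2, Shisa2, Ccn2, Wfdc3, Hmcn1, Nt5e, Fzd3, Timp2, Krt6a and Id2. Of these, Krt6a was listed here as a marker of the inner bulge. Kcnk2, a stretch-sensitive potassium channel, was higher still in the Fgf18 and Myoc bulge barcodes, at 210, 301 and 186 CPM against 127, 88.8 and 87 CPM in the members. Krt15 likewise stood at 8625, 12560 and 6865 CPM in those barcodes and at 6420, 4596 and 4710 CPM in the members.

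Free RNA in the droplets can give UMIs to cells that do not make a gene. Shares of barcodes were therefore taken after thinning each barcode to 3000 UMIs. They were set beside barcodes with Ptprc and under the keratin limit of the rule, called Ptprc barcodes here, which should lack follicle genes. Barcodes with Ptprc over that limit were left out, so shares in the Ptprc barcodes may understate free RNA from keratinocytes. Lhx2 was found in 55.1%, 50.2% and 40.5% of the members of the 2-week knockout, the 3-week knockout and the control, and in 0.935%, 0.439% and 0.583% of the Ptprc barcodes. These shares rest on 2977, 1042 and 684 members and 107, 456 and 343 Ptprc barcodes, whose median depths before thinning were 7154, 7541 and 9213.5 UMIs in members and 4833, 5379 and 6453 UMIs in Ptprc barcodes.

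Lhx2 climbed with the number of markers in each library. Lhx2 stood at 168, 85.7 and 57.1 CPM in members with 3 markers and at 329, 436 and 274 CPM in members with 6, for the 2-week knockout, the 3-week knockout and the control. In keratinocytes with 2 markers it stood at 54.3, 20.1 and 20.6 CPM. Sox9, required to set up and keep follicle stem cells, stood at 647, 176 and 417 CPM with 3 markers and at 802, 529 and 726 CPM with 6, lowest in the 3-week knockout at both ends. Members with 3 markers thus had less Lhx2 and Sox9 than members with 6, most of all in the 3-week knockout and the control.

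**Figure D2:**
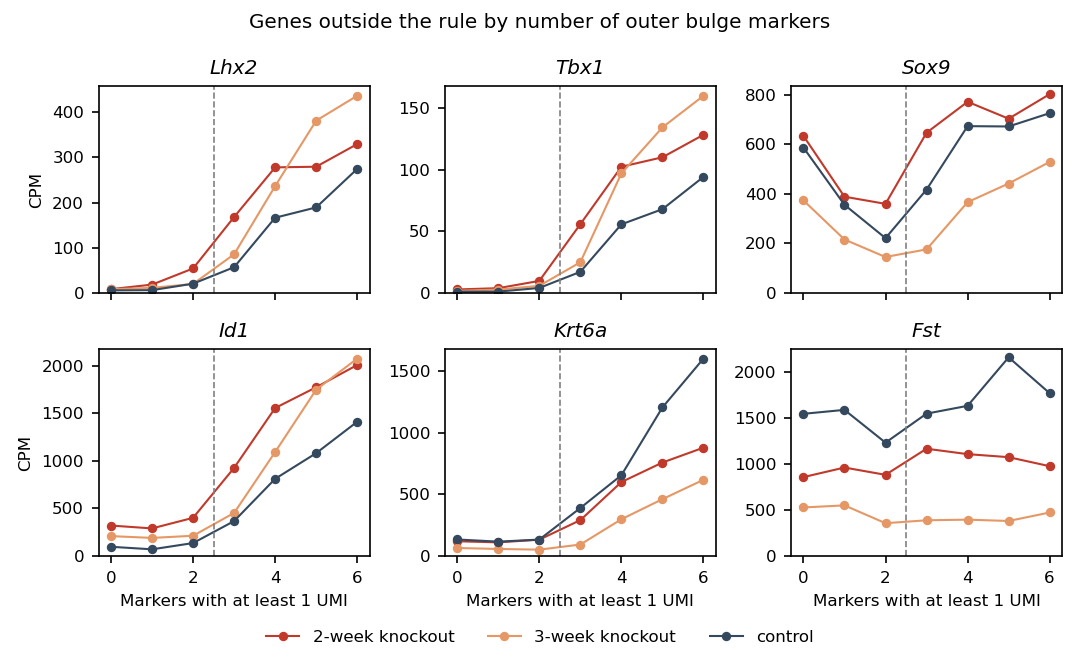
Levels of 6 genes outside the rule (CPM, linear axes from 0) in keratinocyte barcodes grouped by the number of outer bulge markers found, 1 line per library; members lie right of the dashed line. Lhx2, Tbx1 and Id1 climb with marker number and lie lowest in the control at 6 markers, while Krt6a and Fst lie lowest in the 3-week knockout at every marker number from 3 to 6.

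Markers of other cell types were sought in the members. Interfollicular basal genes, among them Thbs1 and Ifi202b, summed to 3984, 4672 and 6169 CPM in members of the 2-week knockout, the 3-week knockout and the control. In other keratinocytes they summed to 8169, 7235 and 9963 CPM. Inner bulge genes, among them Krt6a and Krt16, summed to 1147, 777 and 1606 CPM in members and to 857, 843 and 1103 CPM in other keratinocytes. Both sums were highest in the control. Summed fibroblast genes (Col1a1, Col1a2, Col3a1, Dcn, Lum and Pdgfra) came to 208, 1119 and 1681 CPM in members of the 2-week knockout, the 3-week knockout and the control, and 0.631%, 4.57% and 3.81% of members held over 0.2% of their UMIs in them. Spinous genes summed to 3547, 5273 and 3317 CPM, and 18.5%, 59.9% and 23.0% of members held at least 3 of them. Granular genes summed to 420, 1136 and 216 CPM, and of the granular UMIs 27.5%, 46.6% and 61.5% sat in 1 barcode of each library. Barcodes with over 1% of UMIs from Krt1, Krt10, Krtdap, Sbsn and Lor were 1.73%, 3.45% and 1.27% of the members. T cell genes summed to 2.00, 3.01 and 2.60 CPM and macrophage genes to 5.51, 6.97 and 8.88 CPM, against 202, 303 and 345 CPM and 18.0, 139 and 271 CPM in barcodes under the keratin limit. The rule leaves out barcodes with Ptprc and sets a keratin minimum, so low leukocyte levels in the members follow in part from the rule. In each list each gene had some UMI in each library, except Corin of the dermal papilla list, which was at 0 in the 3-week knockout. Scrublet called 5.64%, 10.5% and 5.64% of the members doublets, against 2.88%, 3.94% and 2.19% of all filtered barcodes. The members so called were kept here.

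Outer bulge cells made up 39.1% of keratinocyte barcodes in the 2-week knockout (exact binomial interval 38.0 to 40.1, 3171 of 8121), 18.3% in the 3-week knockout (17.3 to 19.2, 1159 of 6345) and 23.4% in the control (21.9 to 24.9, 709 of 3030). The ratio to the control was 1.67 (1.54 to 1.81) at 2 weeks and 0.781 (0.710 to 0.858) at 3 weeks. With each barcode thinned to 3000 UMIs before the rule was applied, the shares were 33.5%, 11.1% and 17.6%, and the ratios 1.91 (1.74 to 2.10) and 0.635 (0.565 to 0.713). With a limit of 2 markers in place of 3 the ratio at 3 weeks was 0.985. Of all filtered barcodes the members were 32.1%, 11.6% and 14.1%, and keratinocytes as a whole 82.3%, 63.5% and 60.3%, so the make-up of the cell suspension differed between the libraries. A difference in the cells of the skin and a difference in the cells recovered by digestion cannot be told apart.

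Piezo1 was lower in both knockout libraries. In outer bulge cells it stood at 40.1 CPM in the 2-week knockout (exact Poisson interval 37.8 to 42.5, 1105 UMIs), 18.1 CPM in the 3-week knockout (15.9 to 20.6, 229 UMIs) and 59.4 CPM in the control (54.3 to 64.8, 502 UMIs). The ratio to the control was 0.675 (0.607 to 0.752) at 2 weeks and 0.305 (0.260 to 0.358) at 3 weeks. In members with 3, 4, 5 and 6 markers it was 0.584, 0.894, 0.631 and 0.603 at 2 weeks and 0.243, 0.396, 0.417 and 0.335 at 3 weeks. Other keratinocytes had 22.9, 15.2 and 31.5 CPM, with ratios of 0.727 (0.667 to 0.792) and 0.482 (0.441 to 0.526). Barcodes under the keratin limit, which hold fibroblasts and leukocytes beside differentiated keratinocytes, had 29.2, 24.2 and 45.7 CPM and ratios of 0.638 (0.570 to 0.714) and 0.530 (0.482 to 0.583). That set mixes epithelial and other cells, so these ratios belong to no single cell type. The labels do not name the floxed exons, and tags at the 3′ end of a transcript can remain after an upstream deletion, so these levels do not check the genotypes.

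**Figure D3:**
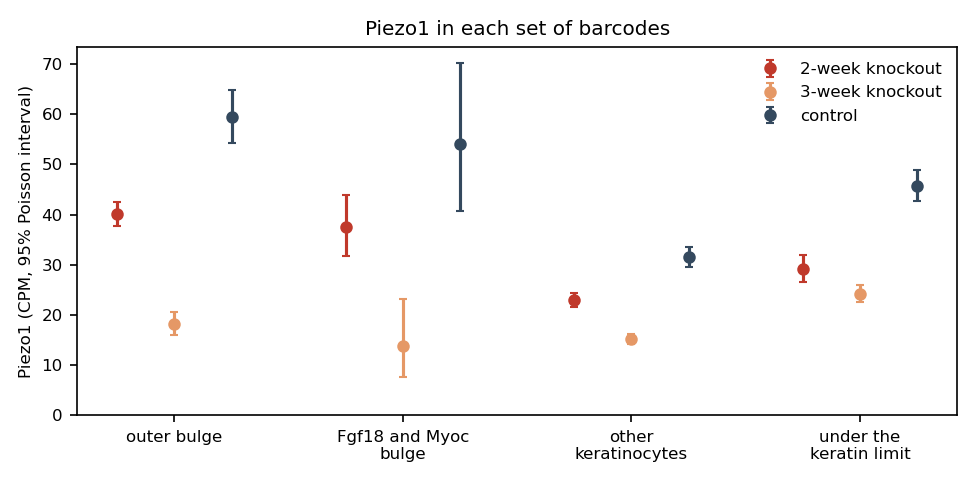
Piezo1 level (CPM, exact 95% Poisson interval) in outer bulge cells, Fgf18 and Myoc bulge barcodes, other keratinocytes and barcodes under the keratin limit, for the 2-week knockout, the 3-week knockout and the control. In each of the 4 sets the control is highest and the 3-week knockout lowest.

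For the comparison across genes, a gene was ranked when it had at least 100 UMIs over both libraries' members and at least 50 CPM in 1 of them, and the change was the log2 ratio of (CPM + 5). Folds with intervals are plain ratios of CPM. At 2 weeks, 18 of the 2818 genes so ranked (0.639%) exceeded the control by 2-fold or more, and 44 (1.56%) lay below it by as much. At 3 weeks, 33 of 2890 (1.14%) exceeded it by 2-fold or more and 104 (3.6%) lay below it. The median log2 ratio of all ranked genes was -0.09 at 2 weeks and -0.11 at 3 weeks. Ribosomal UMIs differed between the libraries, and scaling without ribosomal, mitochondrial, Malat1 and Gm42418 UMIs moved these medians to -0.03 and 0.02. The counts of higher and lower genes then became 27 and 49 at 2 weeks and 60 and 94 at 3 weeks. Relative to the median ratio they were 23 and 31 at 2 weeks and 54 and 76 at 3 weeks.

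Within lists of genes grouped by role, members at least 1.5-fold apart were counted. By the 1.5-fold limit, 3.12% of all ranked genes were higher and 7.38% lower at 2 weeks, and 6.06% were higher and 12.9% lower at 3 weeks. The lists were written with earlier results of these data known, so their counts are descriptions.

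**Figure D4:**
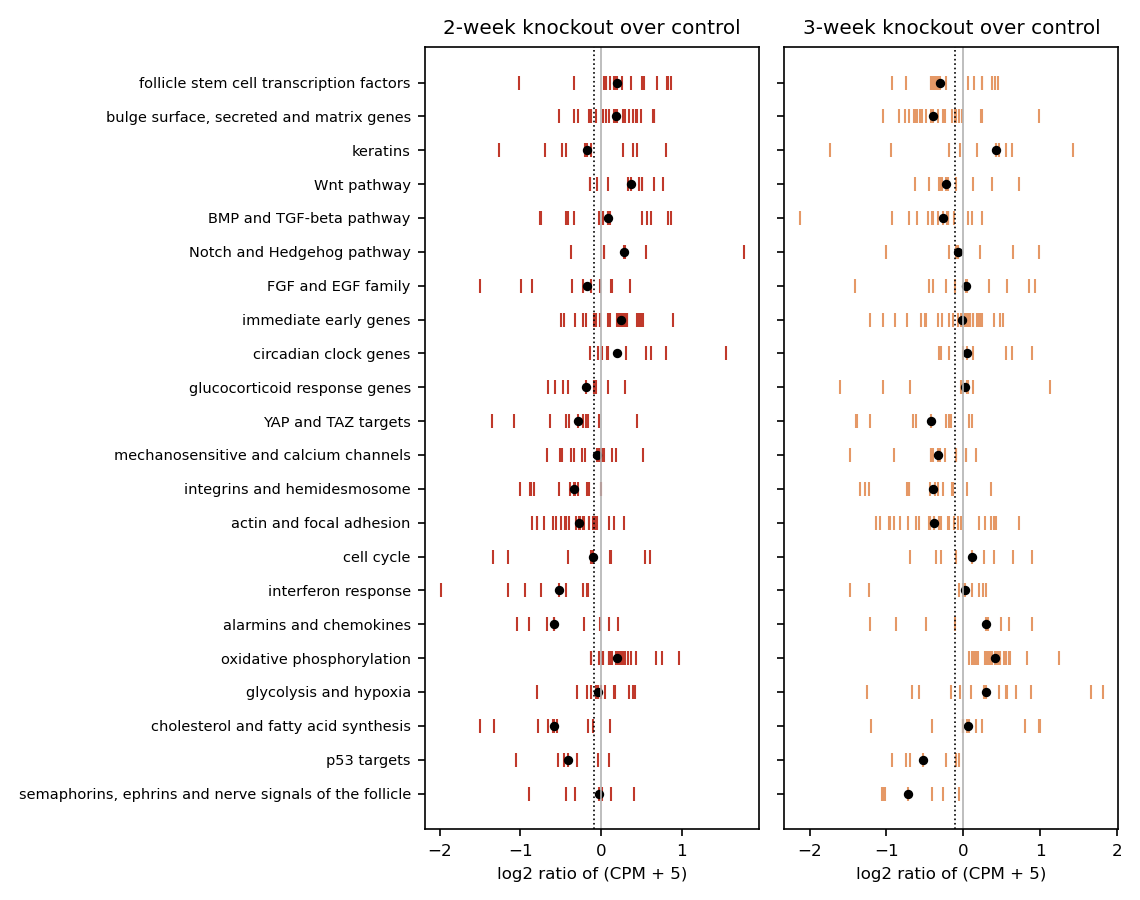
Log2 ratio of (CPM + 5) of each ranked gene in 22 gene lists (ticks, genes of the membership rule included), with the list median (black dot), for the 2-week knockout over control (left) and the 3-week knockout over control (right); the dotted line is the median of all ranked genes. The stem cell transcription factors have a median of 0.20 at 2 weeks and -0.30 at 3 weeks, and the integrin list -0.34 and -0.40.

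Among transcription factors of follicle stem cells Id1, Id3, Tbx1 and Lhx2 were higher and Klf5 lower at 2 weeks, and Sox9 and Runx1 were lower at 3 weeks. Of 21 listed factors 17 were ranked. At 2 weeks 4 were at least 1.5-fold higher and 1 lower, with a median log2 ratio of 0.20 against -0.09 for all ranked genes. At 3 weeks none was at least 1.5-fold higher and 2 were lower, with a median of -0.30 against -0.11, or -0.13 with the marker groups weighed equally, a share of lower genes and a weighed median near those of all ranked genes. Id1 was 1.82-fold higher at 2 weeks (1.78 to 1.87) and 1.18-fold at 3 weeks (1.15 to 1.22), from the levels given above. Id3, another BMP target, stood at 2462, 1440 and 1383 CPM in the 2-week knockout, the 3-week knockout and the control, 1.78-fold higher at 2 weeks (1.75 to 1.81). In other keratinocytes the log2 ratio of Id1 was 1.75 and 1.07 at 2 and 3 weeks, against 0.86 and 0.24 in outer bulge cells.

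Lhx2 was 1.63-fold higher at 2 weeks (1.54 to 1.73) and 1.33-fold at 3 weeks (1.25 to 1.42). With equal weights for the marker groups its log2 ratio at 3 weeks was 0.71 rather than 0.41, and it was above 0 in each of the 4 groups at both times. Tbx1 was 1.81-fold higher at 2 weeks (1.65 to 2.00) and 1.40-fold at 3 weeks (1.26 to 1.56), with 0.77 rather than 0.45 under equal weights at 3 weeks. Both stood above the control at both times, which Sox9 did not. Sox9 stood at 740 CPM in the 2-week knockout, 320 CPM in the 3-week knockout and 615 CPM in the control, 1.20-fold higher at 2 weeks (1.17 to 1.24) and 1.92-fold lower at 3 weeks (1.84 to 2.00). Its log2 ratio at 3 weeks was -1.22 with 3 markers and -0.45 with 6. Runx1, which drives stem cells into growth, stood at 202, 153 and 258 CPM and was 1.69-fold lower at 3 weeks (1.59 to 1.79). Klf5, a factor of interfollicular basal keratinocytes, stood at 238, 381 and 488 CPM and was 2.05-fold lower at 2 weeks (1.97 to 2.13). Nfatc1, the calcium-regulated factor that keeps bulge cells at rest, stood at 196, 136 and 172 CPM, within 1.5-fold of the control at both times.

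Among surface, secreted and matrix genes of the bulge Fzd7, Cd200 and Pdgfa were higher at 2 weeks, and genes such as Aqp3, Egfl6 and Npnt were lower at 3 weeks. Of 36 listed genes 23 were ranked, and 20 without Cd34, Postn and Lgr5, which chose the members. Of these 20, 3 were at least 1.5-fold higher and none lower at 2 weeks, with a median of 0.17, and 1 was higher and 5 were lower at 3 weeks, with a median of -0.36, or -0.15 with equal weights. Fzd7 is a Wnt receptor, Cd200 an immune-modulating surface protein and Pdgfa a ligand. Cd200 stood at 146, 90 and 91.6 CPM in the 2-week knockout, the 3-week knockout and the control, and Pdgfa at 146, 109 and 91.7 CPM. Aqp3, a water and glycerol channel, stood at 521, 272 and 570 CPM, 2.09-fold lower at 3 weeks (2.00 to 2.19). Egfl6 and Npnt are matrix proteins by which bulge cells hold nerve endings and the arrector pili muscle. Egfl6 stood at 67.8, 28.7 and 55.1 CPM, 1.92-fold lower at 3 weeks (1.67 to 2.21), and Npnt at 85.1, 41.5 and 73.8 CPM, 1.78-fold lower (1.58 to 2.00). Npnt had a log2 ratio at 3 weeks of -0.02 with 3 markers and -1.27 with 6.

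Keratins differed in direction. Krt6a is a keratin of the companion layer and of wounded or stressed epidermis, and was listed here as a marker of the inner bulge. It stood at 687 CPM in the 2-week knockout, 287 CPM in the 3-week knockout and 966 CPM in the control. It was 1.41-fold lower at 2 weeks (1.37 to 1.44) and 3.37-fold lower at 3 weeks (3.24 to 3.51), and lower in each of the 4 marker groups at both times. In members with 6 markers it stood at 879, 618 and 1601 CPM. Its partner keratin Krt16 stood at 238, 199 and 388 CPM, 1.63-fold lower at 2 weeks (1.56 to 1.70) and 1.95-fold lower at 3 weeks (1.85 to 2.05). The basal keratins of the rule stood at 3417, 4189 and 2842 CPM (Krt5), 4465, 6803 and 5039 CPM (Krt14) and 6420, 4596 and 4710 CPM (Krt15). Of 17 listed keratins 11 were ranked, and 7 without Krt5, Krt14, Krt15 and Krt24 of the rule. Of these 7, 1 was at least 1.5-fold higher and 2 lower at 2 weeks (median -0.44), and 2 higher and 2 lower at 3 weeks (median 0.42, or 0.07 with equal weights). Krt1 and Krt10 of the spinous layer were among them: Krt1 stood at 354, 553 and 202 CPM, with 22.9% of its control UMIs in 1 barcode.

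In the Wnt pathway 2 Frizzled receptors, Fzd3 and Fzd7, were higher at 2 weeks. Of 40 listed genes 11 were ranked, 2 of them at least 1.5-fold higher and none lower at 2 weeks (median 0.37), and 1 higher and 1 lower at 3 weeks (median -0.23). Fzd3 stood at 116 CPM in the 2-week knockout, 72.4 CPM in the 3-week knockout and 66.3 CPM in the control, 1.76-fold higher at 2 weeks (1.61 to 1.93). Fzd7 stood at 61.6, 38.9 and 37 CPM, 1.66-fold higher at 2 weeks (1.47 to 1.88). With equal weights for the marker groups Fzd3 had log2 ratios of 0.65 and 0.48 at 2 and 3 weeks. The ligand Wnt4 stood at 83.3, 112 and 65.2 CPM, 1.71-fold higher at 3 weeks (1.55 to 1.89), and the R-spondin receptor Lgr4 at 57.1, 36.8 and 59.4 CPM, 1.62-fold lower at 3 weeks (1.42 to 1.84). Most of the listed Wnt ligands and inhibitors were too low in these cells to be ranked.

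In the BMP and TGF-beta pathway the antagonist follistatin had the lowest log2 ratio of the ranked list at 3 weeks. Fst, which binds activin and BMPs, stood at 1066 CPM in the 2-week knockout, 404 CPM in the 3-week knockout and 1788 CPM in the control. It was 1.68-fold lower at 2 weeks (1.65 to 1.71) and 4.43-fold lower at 3 weeks (4.29 to 4.57). The log2 ratio at 3 weeks lay between -1.89 and -2.49 in the 4 marker groups, and was -1.60 in other keratinocytes. Grem1 had a different pattern, 1.55-fold higher at 2 weeks (1.47 to 1.64) and 1.16-fold lower at 3 weeks (1.08 to 1.24). Pmepa1, a TGF-beta target that dampens the signal, stood at 175, 89.7 and 317 CPM, 1.81-fold lower at 2 weeks (1.73 to 1.90) and 3.54-fold lower at 3 weeks (3.30 to 3.79). Smad7, another inhibitory target, stood at 228, 110 and 214 CPM, 1.95-fold lower at 3 weeks (1.82 to 2.09). Of 40 listed genes 17 were ranked: 3 were at least 1.5-fold higher and 2 lower at 2 weeks (median 0.09), and none was higher and 4 were lower at 3 weeks (median -0.27).

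Hes1, a repressor that Notch and other signals induce, had the largest ratio above the control at 2 weeks among the named genes. It stood at 295 CPM in the 2-week knockout, 168 CPM in the 3-week knockout and 82.8 CPM in the control, 3.56-fold higher at 2 weeks (3.30 to 3.85) and 2.03-fold at 3 weeks (1.86 to 2.22). It was found in 45.1%, 29.9% and 20.8% of thinned members and in 2.8%, 5.26% and 1.46% of Ptprc barcodes. It was higher in each marker group at both times, and its log2 ratio in other keratinocytes was 1.77 and 1.56, against 1.77 and 0.98 in outer bulge cells. The Notch ligand Jag1 stood at 129, 82.6 and 170 CPM, 2.05-fold lower at 3 weeks (1.90 to 2.23), while Jag2 stood at 77.3, 102 and 63 CPM, 1.62-fold higher at 3 weeks (1.46 to 1.79). Notch1 and Rbpj, the receptor and its nuclear partner, were within 1.5-fold of the control at both times. Of 24 listed Notch and Hedgehog genes 7 were ranked, 1 higher and none lower at 2 weeks (median 0.28) and 2 higher and 1 lower at 3 weeks (median -0.07).

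Among FGF and EGF family genes, those at least 1.5-fold apart at 2 weeks were all lower. Dusp6, a phosphatase induced by ERK signals, stood at 204 CPM in the 2-week knockout, 138 CPM in the 3-week knockout and 374 CPM in the control, 1.83-fold lower at 2 weeks (1.76 to 1.92) and 2.71-fold lower at 3 weeks (2.56 to 2.87). Epgn, the EGF receptor ligand epigen, stood at 118, 433 and 344 CPM, 2.91-fold lower at 2 weeks (2.76 to 3.06). Epgn was lower in members with more markers, at 69.6, 84.3 and 48.9 CPM with 6 markers, where it was not lower than the control in either knockout. Errfi1, an inhibitor of the EGF receptor, stood at 385, 292 and 610 CPM, 1.58-fold lower at 2 weeks (1.53 to 1.64) and 2.09-fold lower at 3 weeks (2.00 to 2.18). Phlda1, a pleckstrin domain gene induced by growth factors and known as a follicle stem cell marker in human skin, stood at 473, 277 and 1141 CPM. It was 2.41-fold lower at 2 weeks (2.35 to 2.48) and 4.12-fold lower at 3 weeks (3.96 to 4.28), with log2 ratios in the 4 marker groups between -1.13 and -1.32 at 2 weeks and between -2.01 and -2.25 at 3 weeks. Of 24 listed FGF and EGF genes, none of 10 ranked was at least 1.5-fold higher and 3 were lower at 2 weeks (median -0.17), and 2 of 11 were higher and 1 lower at 3 weeks (median 0.04, or -0.21 with equal weights).

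Among circadian clock genes Dbp, Nr1d1 and Tef were higher at 2 weeks. Of 19 listed clock genes 10 were ranked at 2 weeks, 3 of them at least 1.5-fold higher and none lower (median 0.20), and at 3 weeks 2 of 9 were higher and none lower (median 0.05). In other keratinocytes the medians of the same genes were larger, 0.56 at 2 weeks and 0.68 at 3 weeks, so the difference is not particular to outer bulge cells. Per1, Bhlhe40 and Nr1d2 had log2 ratios of 0.09, 0.01 and -0.14 at 2 weeks. Dbp, a clock-driven transcription factor, stood at 95.8 CPM in the 2-week knockout, 58.9 CPM in the 3-week knockout and 29.4 CPM in the control, 3.27-fold higher at 2 weeks (2.87 to 3.73) and 2.01-fold at 3 weeks (1.74 to 2.33). Nr1d1, the clock repressor REV-ERB alpha, stood at 232, 194 and 131 CPM, 1.77-fold higher at 2 weeks (1.66 to 1.89) and 1.48-fold at 3 weeks (1.38 to 1.59). Tef, a relative of Dbp, stood at 56.5, 45.2 and 34.9 CPM, 1.62-fold higher at 2 weeks (1.43 to 1.84). The clock activator Clock had log2 ratios of 0.07 and -0.18. The hour at which the skins were taken is not given in the sources used here, and its part in these values was not tested. Clock activators bind an E-box, so the 250 bases before the start of the 3 genes above 1.5-fold were searched for CACGTG on both strands, a word that 6.05% of 27025 promoters in the RefSeq table (GRCm38.p6) held. The Tef promoter held 1 match, shown in capitals, 127 bases before the start, and a match also lay before its second listed start; those of Dbp and Nr1d1 held none in this window. The positions are chr7:45704997-45705246 (plus strand) for Dbp, chr11:98775378-98775627 (minus strand) for Nr1d1 and chr15:81802423-81802672 (plus strand) for Tef.
Dbp: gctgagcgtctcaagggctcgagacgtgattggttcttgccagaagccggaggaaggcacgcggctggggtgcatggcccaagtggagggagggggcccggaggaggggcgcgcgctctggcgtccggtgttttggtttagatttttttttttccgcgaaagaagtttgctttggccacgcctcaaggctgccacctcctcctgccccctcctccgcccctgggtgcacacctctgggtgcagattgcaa
Nr1d1: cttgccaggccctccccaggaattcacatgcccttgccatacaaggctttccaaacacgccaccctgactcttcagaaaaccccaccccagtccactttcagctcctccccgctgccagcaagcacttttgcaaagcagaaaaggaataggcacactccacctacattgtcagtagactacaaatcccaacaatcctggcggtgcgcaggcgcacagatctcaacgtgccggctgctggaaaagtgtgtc
Tef: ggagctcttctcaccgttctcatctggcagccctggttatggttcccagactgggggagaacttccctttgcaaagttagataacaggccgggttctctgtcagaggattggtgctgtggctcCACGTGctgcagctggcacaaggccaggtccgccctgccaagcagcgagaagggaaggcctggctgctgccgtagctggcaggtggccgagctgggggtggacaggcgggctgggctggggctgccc

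Among targets and partners of the mechanically regulated coactivators YAP and TAZ, those at least 1.5-fold apart were all lower. Of 19 listed symbols 17 were found and 11 ranked, none of them at least 1.5-fold higher; 3 were lower at 2 weeks (median -0.29) and 5 at 3 weeks (median -0.42, or -0.18 for the same list in the marker groups weighed equally). Thbs1, the secreted matricellular protein thrombospondin 1, stood at 907 CPM in the 2-week knockout, 882 CPM in the 3-week knockout and 2324 CPM in the control, 2.56-fold lower at 2 weeks (2.51 to 2.61) and 2.64-fold lower at 3 weeks (2.58 to 2.70). In members with 6 markers Thbs1 stood at 1070, 898 and 2981 CPM. F3, tissue factor, stood at 90, 71.2 and 196 CPM, 2.17-fold lower at 2 weeks (2.04 to 2.31) and 2.75-fold lower at 3 weeks (2.53 to 2.98). F3 was found in 8.67%, 8.54% and 11.7% of thinned members and in 1.87%, 5.48% and 2.04% of Ptprc barcodes, and its log2 ratios in members with 6 markers were -0.28 and -0.38. Ccn1, a secreted early target, stood at 1837, 920 and 2135 CPM, 1.16-fold lower at 2 weeks (1.14 to 1.18) and 2.32-fold lower at 3 weeks (2.27 to 2.38), while in other keratinocytes its log2 ratios were 0.05 and 0.16. Ccn2, the related target, stood at 384, 208 and 281 CPM, within 1.5-fold of the control at both times. Wwtr1, which encodes TAZ, stood at 102, 99.6 and 161 CPM, 1.58-fold lower at 2 weeks (1.48 to 1.69) and 1.61-fold lower at 3 weeks (1.49 to 1.74), and Yap1 had log2 ratios of -0.19 and -0.16. YAP and TAZ act through TEAD factors, often beside AP-1, so the 250 bases before the starts of F3, Ccn1 and Wwtr1 were searched on both strands for the TEAD word GGAATG, held by 12.6% of the 27025 promoters, and the AP-1 word TGANTCA, held by 6.87%. F3 held 2 AP-1 matches 146 and 135 bases before its start, Ccn1 1 TEAD match at 103 bases on the opposite strand and Wwtr1 1 TEAD match at 136 bases, all in capitals, with no overlap between matches; a match is a description and not a shown binding site. The positions are chr3:121723287-121723536 (plus strand) for F3, chr3:145649986-145650235 (minus strand) for Ccn1 and chr3:57575911-57576160 (minus strand) for Wwtr1.
F3: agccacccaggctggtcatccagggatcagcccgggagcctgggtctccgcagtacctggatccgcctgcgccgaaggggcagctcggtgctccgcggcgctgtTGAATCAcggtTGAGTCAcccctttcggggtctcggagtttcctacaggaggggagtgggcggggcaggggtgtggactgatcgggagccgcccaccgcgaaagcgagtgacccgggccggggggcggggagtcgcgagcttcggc
Ccn1: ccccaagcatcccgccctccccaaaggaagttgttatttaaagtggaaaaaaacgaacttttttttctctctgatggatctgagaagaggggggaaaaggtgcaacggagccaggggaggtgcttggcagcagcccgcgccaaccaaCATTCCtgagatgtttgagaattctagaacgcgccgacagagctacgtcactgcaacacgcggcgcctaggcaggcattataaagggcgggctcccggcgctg
Wwtr1: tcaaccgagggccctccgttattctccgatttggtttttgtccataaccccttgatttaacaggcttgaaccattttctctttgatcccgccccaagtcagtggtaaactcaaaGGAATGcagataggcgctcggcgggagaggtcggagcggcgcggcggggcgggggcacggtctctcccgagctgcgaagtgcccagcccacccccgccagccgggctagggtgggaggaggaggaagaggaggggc

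Bulge cells hold the basement membrane and carry force through integrins, laminins and actin, and some of these genes were lower. Of 22 listed integrin and hemidesmosome genes, none of 13 ranked was at least 1.5-fold higher and 4 were lower at 2 weeks (median -0.34), and none of 14 was higher and 6 were lower at 3 weeks (median -0.40). The same genes had similar medians in other keratinocytes, -0.31 and -0.35. Itga2, the collagen-binding integrin subunit, stood at 67.4 CPM in the 2-week knockout, 51.8 CPM in the 3-week knockout and 140 CPM in the control, 2.07-fold lower at 2 weeks (1.92 to 2.23) and 2.69-fold lower at 3 weeks (2.44 to 2.97). Lama3 encodes a chain of laminin-332, the anchor of hemidesmosomes. It stood at 110, 81 and 204 CPM, 1.86-fold lower at 2 weeks (1.75 to 1.97) and 2.52-fold lower at 3 weeks (2.33 to 2.72), in each of the 4 marker groups at both times. Itgb6, a subunit of the TGF-beta-activating integrin, stood at 47.5, 36.4 and 91.7 CPM, 1.93-fold lower (1.77 to 2.11) and 2.52-fold lower (2.24 to 2.84). Itga6, Itgb4 and Col17a1, the core of the hemidesmosome, stayed within 1.5-fold of the control, with log2 ratios of -0.52, -0.29 and -0.15 at 2 weeks and -0.15, -0.26 and -0.33 at 3 weeks.

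Of 32 actin and focal adhesion genes, none of 26 ranked was at least 1.5-fold higher and 5 were lower at 2 weeks (median -0.27), and 1 of 27 was higher and 8 were lower at 3 weeks (median -0.38). Actb, beta-actin, stood at 2899 CPM in the 2-week knockout, 3406 CPM in the 3-week knockout and 5254 CPM in the control, 1.81-fold lower at 2 weeks (1.79 to 1.83) and 1.54-fold lower at 3 weeks (1.52 to 1.56). Myh9, non-muscle myosin, stood at 188, 197 and 330 CPM, 1.75-fold lower (1.67 to 1.83) and 1.67-fold lower (1.58 to 1.76). Tpm1, tropomyosin, stood at 494, 330 and 728 CPM, 1.48-fold lower (1.43 to 1.52) and 2.21-fold lower (2.12 to 2.30). In other keratinocytes Actb had log2 ratios of -0.86 and -0.68 and Tpm1 -0.69 and -0.62. Rock2, a kinase that drives contraction, stood at 238, 168 and 363 CPM, 2.16-fold lower at 3 weeks (2.04 to 2.29). Among 36 listed mechanosensitive and calcium genes 15 were ranked, none at least 1.5-fold higher. At 2 weeks 1 was lower (median -0.05), and at 3 weeks 2 were (median -0.33), Rcan1 and the targeted gene Piezo1. These counts were near the shares of lower genes among all ranked genes, 7.38% and 12.9%. Rcan1, a target and inhibitor of the calcium-activated phosphatase calcineurin, stood at 125, 106 and 202 CPM, 1.61-fold lower at 2 weeks (1.52 to 1.71) and 1.90-fold lower at 3 weeks (1.77 to 2.04).

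Single early response genes differed in direction. Fos stood at 10640 CPM in the 2-week knockout, 8190 CPM in the 3-week knockout and 5727 CPM in the control, 1.86-fold higher at 2 weeks (1.84 to 1.88) and 1.43-fold at 3 weeks (1.42 to 1.45). Its log2 ratio in other keratinocytes was 1.46 and 1.37. Fosl1, the AP-1 subunit FRA1, stood at 589, 392.2 and 814 CPM, 2.08-fold lower at 3 weeks (2.00 to 2.15), and Myc at 216, 144 and 271 CPM, 1.88-fold lower at 3 weeks (1.77 to 2.00). Of 28 listed genes 27 were ranked, 1 higher and none lower at 2 weeks (median 0.24) and none higher and 4 lower at 3 weeks (median -0.02). These counts were near or below the shares of all ranked genes, among them 3.12% higher at 2 weeks and 12.9% lower at 3 weeks. Tissue digestion is known to induce genes of this kind, and its part in these values was not tested. Sgk1, a kinase induced by glucocorticoids and osmotic stress, stood at 512, 248 and 761 CPM, 1.49-fold lower at 2 weeks (1.44 to 1.53) and 3.07-fold lower at 3 weeks (2.94 to 3.2). Its log2 ratio at 3 weeks lay between -1.20 and -1.72 in the 4 marker groups and was -0.36 in other keratinocytes, a difference between the sets that was not tested. Tsc22d3, the glucocorticoid-induced leucine zipper gene, stood at 37.1, 71 and 29.8 CPM, 2.38-fold higher at 3 weeks (2.07 to 2.75). Of 11 listed glucocorticoid response genes, none of 9 ranked was higher and 1 was lower at 2 weeks (median -0.19), and 1 of 10 was higher and 3 lower at 3 weeks (median 0.02).

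Interferon and alarmin genes at least 1.5-fold apart at 2 weeks were all lower, as was the only such p53 target. Among all ranked genes 7.38% were lower at 2 weeks and 12.9% at 3 weeks. In other keratinocytes the medians of the ranked interferon, alarmin and p53 genes were -0.27, -0.32 and -0.32 at 2 weeks. At 3 weeks they were -0.17, -0.08 and -0.47, so lower values are not particular to outer bulge cells. Ifi202b, of the interferon-induced Ifi200 family, stood at 170 CPM in the 2-week knockout, 292 CPM in the 3-week knockout and 690 CPM in the control, 4.07-fold lower at 2 weeks (3.91 to 4.23) and 2.37-fold lower at 3 weeks (2.27 to 2.47). Its 3′ end is shared with 1 other annotated gene, and its log2 ratio at 2 weeks was -1.05 when barcodes were thinned before the rule. Ifi202b is mainly a gene of the other keratinocytes, at 997, 709 and 2563 CPM there. Of 23 listed interferon genes 9 were ranked, none higher and 4 lower at 2 weeks (median -0.52), and none higher and 2 lower at 3 weeks (median 0.02, or -0.20 with equal weights). Of 21 alarmins and chemokines 9 were ranked, none higher and 4 lower at 2 weeks (median -0.58), and 2 higher and 2 lower at 3 weeks (median 0.29, or -0.01 with equal weights). Ptgs2, the inducible prostaglandin enzyme, stood at 442, 282 and 664 CPM, 2.35-fold lower at 3 weeks (2.26 to 2.46). Cxcl16, a chemokine, stood at 130, 131 and 244 CPM, 1.88-fold lower (1.78 to 1.99) and 1.86-fold lower (1.74 to 1.98). Of 14 p53 targets 7 were ranked, none higher, with 1 lower at 2 weeks (median -0.41) and 3 at 3 weeks (median -0.53). Gadd45a, a stress gene, stood at 39.3, 43.5 and 87.1 CPM, 2.22-fold lower (2.02 to 2.44) and 2.00-fold lower (1.79 to 2.24).

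Among genes of oxidative phosphorylation those at least 1.5-fold apart were all higher, and most genes of the list lay within that limit. All 27 listed oxidative phosphorylation genes were ranked: 3 were at least 1.5-fold higher and none lower at 2 weeks (median 0.20), and 4 were higher and none lower at 3 weeks (median 0.41). Atp5k, a small subunit of ATP synthase, stood at 180 CPM in the 2-week knockout, 222 CPM in the 3-week knockout and 90.1 CPM in the control, 2.00-fold higher at 2 weeks (1.86 to 2.17) and 2.46-fold at 3 weeks (2.27 to 2.67). Ndufa3, of complex I, stood at 91.3, 97 and 52.4 CPM, 1.74-fold higher (1.57 to 1.93) and 1.85-fold higher (1.66 to 2.07). Of 21 glycolysis and hypoxia genes 15 were ranked, none higher and 1 lower at 2 weeks (median -0.04), and 4 higher and 2 lower at 3 weeks (median 0.29). Gapdh stood at 329, 481 and 259 CPM, 1.86-fold higher at 3 weeks (1.77 to 1.96). Ndrg1, a hypoxia-induced gene, stood at 415, 304 and 728 CPM, 1.75-fold lower at 2 weeks (1.70 to 1.81) and 2.39-fold lower at 3 weeks (2.30 to 2.49). Of 22 cholesterol and fatty acid synthesis genes, none of 10 ranked was higher and 6 were lower at 2 weeks (median -0.59), and 3 of 12 were higher and 1 was lower at 3 weeks (median 0.06). Sqle, of cholesterol synthesis, stood at 81, 51.7 and 125 CPM, 1.54-fold lower (1.43 to 1.66) and 2.42-fold lower (2.19 to 2.67). Scd1 and Elovl6, sebocyte enzymes as well, had 66.2% and 60.5% of their control UMIs in 1 barcode.

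Most cell cycle genes were too low to be ranked. Of 24 listed genes 9 were ranked, 1 higher and 2 lower at 2 weeks (median -0.10) and 2 higher and 1 lower at 3 weeks (median 0.11). Ccnd1, cyclin D1, stood at 57.2 CPM in the 2-week knockout, 102 CPM in the 3-week knockout and 52.4 CPM in the control, 1.94-fold higher at 3 weeks (1.74 to 2.17). Mki67, present only in dividing cells, stood at 27.7, 62.9 and 78.1 CPM, with 19.7% of its control UMIs in 1 barcode. Of 18 listed semaphorin, ephrin and nerve signal genes 7 were ranked, none higher, with 1 lower at 2 weeks (median -0.03) and 4 at 3 weeks (median -0.72, or -0.42 with equal weights). Sema3e, a secreted guidance cue, stood at 137, 65.2 and 140 CPM, 2.14-fold lower at 3 weeks (1.96 to 2.34). Epha4, an ephrin receptor, stood at 128, 75.4 and 162 CPM, 2.15-fold lower at 3 weeks (1.98 to 2.34).

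Other genes named by the size of their ratio at 2 weeks were as follows. Cck, the peptide cholecystokinin, stood at 92.5 CPM in the 2-week knockout, 30.4 CPM in the 3-week knockout and 34 CPM in the control, 2.72-fold higher at 2 weeks (2.41 to 3.09). In other keratinocytes it stood at 1.71, 0.615 and 1.12 CPM. Cck was higher in each of the 4 marker groups at 2 weeks, with log2 ratios between 0.94 and 2.36. Fam71a stood at 107, 79.5 and 40.5 CPM, Tsc22d4 at 162, 113 and 77.6 CPM, Efna3, an ephrin ligand, at 66.7, 65.3 and 30.9 CPM, Clasrp, a splicing-related gene, at 53, 33.7 and 22.7 CPM and Ndufb1-ps at 238, 248 and 119 CPM. Plp2, a membrane protein, stood at 126, 174 and 56 CPM, 2.25-fold higher at 2 weeks (2.04 to 2.48) and 3.1-fold at 3 weeks (2.81 to 3.43). Reads of Plp2 and Dleu2 may be shared with similar genes. Ets1, a transcription factor also high in lymphocytes, stood at 23.4, 27.4 and 80.2 CPM, 3.42-fold lower at 2 weeks (3.07 to 3.82).

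The lowest ratios at 2 weeks belonged to fibroblast genes. Col1a1, of type I collagen, stood at 59.9, 176 and 491 CPM, 8.19-fold lower at 2 weeks (7.73 to 8.67), and Col3a1 at 23.9, 142 and 288 CPM, 12.1-fold lower (11.1 to 13.2). Without barcodes holding over 0.2% of UMIs in fibroblast genes, the log2 ratio at 2 weeks was -0.44 for Col1a1 rather than -2.93, -0.23 for Col1a2 rather than -2.82, -1.10 for Col3a1 rather than -3.34, -0.98 for Dcn rather than -2.62 and 0.54 for Meg3 rather than -2.37. Hist1h1b and Hist1h2ae, histone genes of dividing cells, had log2 ratios of -1.98 and -1.65 at 2 weeks, and of 0.36 and 0.03 when barcodes were thinned before the rule; reads of Hist1h2ae may be shared with 20 similar genes. Fabp4, of fat cells and vessels, had 47.7% of its control UMIs in 1 barcode. Mt4 and Lor, of the differentiating epidermis, were among the highest at 2 weeks, with 25.6% and 77.3% of their control UMIs in 1 barcode. Lor reversed to -0.61 with thinned barcodes.

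At 3 weeks the gene with the lowest ratio was Wdr89, which encodes a WD repeat protein. It stood at 419 CPM in the 2-week knockout, 85.5 CPM in the 3-week knockout and 695 CPM in the control, 1.66-fold lower at 2 weeks (1.61 to 1.71) and 8.13-fold lower at 3 weeks (7.62 to 8.69). The log2 ratio at 3 weeks was -3.07 in other keratinocytes and -2.96 in barcodes under the keratin limit, a set that holds differentiated keratinocytes beside other cells. Ftl1-ps1, whose reads may be shared with 15 similar genes, had a log2 ratio at 3 weeks of -2.34. Nppc, the C-type natriuretic peptide, stood at 158, 43.7 and 186 CPM, 4.26-fold lower at 3 weeks (3.87 to 4.71), and -0.88 against -1.97 on the log2 scale in other keratinocytes and outer bulge cells. Has2, which makes hyaluronan, stood at 56.1, 14.3 and 63.4 CPM, 4.45-fold lower at 3 weeks (3.75 to 5.30). Cpa4, a carboxypeptidase, stood at 31.7, 15.4 and 56.8 CPM, 3.68-fold lower at 3 weeks (3.11 to 4.37), with a log2 ratio of 0.18 in other keratinocytes. In members with 6 markers Cpa4 stood at 44.1, 27.1 and 118 CPM. Zswim6 stood at 59.9, 21.4 and 79.4 CPM, 3.71-fold lower at 3 weeks (3.22 to 4.29).

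Among the highest ratios at 3 weeks, Eno1, which shares its 3′ end with Eno1b, stood at 17.4 CPM in the 2-week knockout, 53.2 CPM in the 3-week knockout and 11.5 CPM in the control, 4.63-fold higher at 3 weeks (3.74 to 5.79). Its log2 ratio was 1.22 rather than 1.82 with an offset of 20 CPM. Ndufa4l2, a hypoxia-induced mitochondrial protein, stood at 51, 178 and 53.1 CPM, 3.36-fold higher (3.03 to 3.72). Tnfrsf19, the receptor TROY, stood at 13.1, 53.6 and 13.8 CPM, 3.87-fold higher (3.17 to 4.75). Both were higher in keratinocytes with 2 markers, Ndufa4l2 at 189, 343 and 151 CPM and Tnfrsf19 at 45.7, 91.3 and 44.5 CPM, than in the members. Fabp5, an epidermal fatty acid binding protein with 2 similar genes, stood at 107, 326 and 98.2 CPM, and its log2 ratio was 0.97 rather than 1.68 with thinned barcodes.

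Genes of the cornified layer were also among the highest ratios at 3 weeks. Lce1m stood at 46.7, 311 and 4.38 CPM with 63.7% of its 3-week UMIs in 1 barcode, and Lor at 306, 650 and 151 CPM with 42.5% in 1 barcode. With at least 4 markers required, the log2 ratio at 3 weeks was -0.55 for Lor rather than 2.07, -0.10 for Crct1 rather than 1.71, -0.08 for Asprv1 rather than 1.51 and -1.34 for Flg2 rather than 1.46. With at least 5 markers, a limit chosen after the data were seen, it was -0.59 for Csta1 rather than 1.58 and -0.57 for Elovl4 rather than 1.48. Lor was found in 3.83%, 29.5% and 5.12% of thinned members and in 5.61%, 39.5% and 6.41% of Ptprc barcodes, a share no higher than in cells that should lack it.

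**Figure D5:**
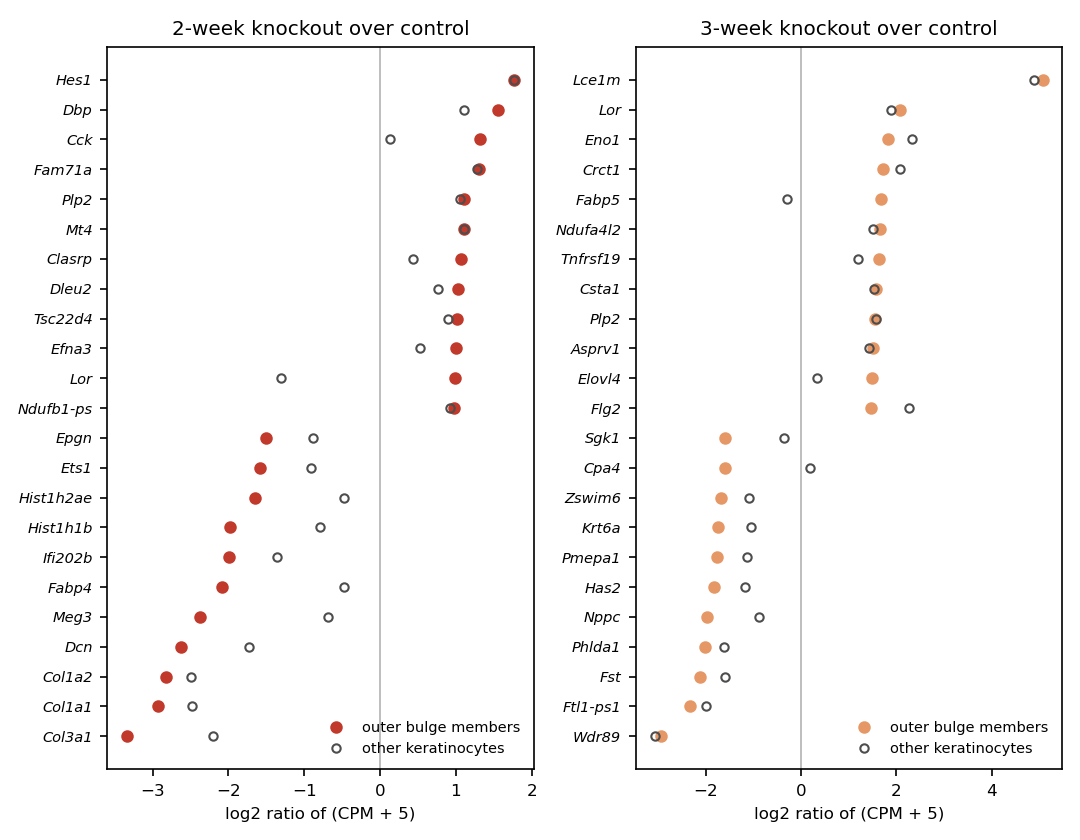
Log2 ratio of (CPM + 5) for the named genes of highest and lowest ratio, 2-week knockout over control (left) and 3-week knockout over control (right), in outer bulge cells (filled) and in other keratinocytes (open). Cpa4 and Sgk1 at 3 weeks lie near 0 in other keratinocytes (0.18 and -0.36) and far from it in outer bulge cells (both -1.60). Cck at 2 weeks has 0.13 in other keratinocytes and 1.32 in outer bulge cells. Its levels in other keratinocytes lay under the offset of 5 CPM, which holds that ratio near 0.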

How the data were processed

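The authors deposited 1 filtered gene by barcode matrix of UMI counts per library, made with Cell Ranger 6.1.2 on the mm10 genome (release and build per the file headers, and the submitters' notes on processing). The values are raw counts with no normalization, and every deposited barcode held at least 500 UMIs. Neither the annotation release nor the counting of intron reads is given in those sources. From these counts, members were chosen by the rule that opens the report, their UMIs were summed per library, and sums were divided by the members' total (CPM). Log2 ratios used an offset of 5 CPM. Exact Poisson, Clopper-Pearson and conditional intervals at 95% cover counting error only. No doublets were removed, and a Scrublet run was an alternative. Summing and ranking were tested on simulated data with known folds.

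The genes named were, among ranked genes, the 12 highest and 12 lowest per knockout at least 1.5-fold apart, without ribosomal, mitochondrial, haemoglobin, Xist, Tsix, Y-linked and rule genes and unnamed gene models. The 20 genes highest over other keratinocytes, up to 4 of largest ratio per list, and genes of known role were added. Members and lists were chosen with earlier results of these data known. Genes whose last 400 bases matched another gene at 95% identity or more over at least 100 bases are given as uncertain. Promoters came from a RefSeq table (GRCm38.p6, the assembly of mm10), and Hes1 and Thbs1 were not shown from it. Python 3.11.15, numpy 2.4.6, scipy 1.17.1, pandas 2.3.3, matplotlib 3.10.9 and scanpy 1.11.5 were used. Alternatives changed the marker limit, depth, doublets, mixed barcodes, offset, filter, scaling and weights. Some genes that met the naming rule are not reported here.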

Additional observations from a re-analysis of the deposited data

Results flagged for a closer look

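Some genes were at least 1.5-fold higher than the control in one knockout library and at least 1.5-fold lower in the other. Both log2 ratios share the control library, each group is 1 library, and the difference was not tested. Dcn, a fibroblast proteoglycan, had -2.62 at 2 weeks and 0.66 at 3 weeks, a difference (3-week minus 2-week) of 3.28, beside the fibroblast genes described above. Scd1, a desaturase high in sebocytes, had -1.50 and 0.99, a difference of 2.49, with 66.2% of its control UMIs in 1 barcode. Tnfaip3, an inhibitor of NF-kappa-B signals, had -1.04 and 0.60, a difference of 1.64. Ly6a, which encodes the surface antigen Sca-1, had -1.0 and 0.60, a difference of 1.61, and Tcim had -0.65 and 0.91, a difference of 1.56. Fgfbp1, which carries FGFs, had -0.60 and 0.68, a difference of 1.28. Ptn, the secreted growth factor pleiotrophin, ran the other way, with 0.61 and -0.68, a difference of -1.29. With the marker groups weighed equally Dcn, at -2.56 and 0.58, and Scd1, at -1.30 and 1.12, kept their directions. Tnfaip3 had -0.86 and 0.30, Ly6a -0.82 and 0.31, Tcim -0.48 and 0.59, Fgfbp1 -0.51 and 0.43 and Ptn 0.53 and -0.46, so none of these 5 was 1.5-fold apart at both times.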

How the results depend on the processing

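The share of outer bulge cells relative to the control, 1.67 at 2 weeks and 0.781 at 3 weeks, became 1.40 and 0.985 with at least 2 markers, 1.82 and 0.672 with at least 4, 1.85 and 0.601 with at least 5 (a limit chosen after seeing the data) and 1.91 and 0.635 with thinned barcodes. The Piezo1 ratio became 0.788 at 2 weeks with at least 2 markers, and at 3 weeks 0.370, 0.364 and 0.373 with at least 2, 4 and 5. The counts of genes at least 2-fold apart also moved. At 2 weeks the 18 higher genes became 29 with a filter of 20 UMIs and no CPM minimum. The 44 lower genes became 29 with at least 2 markers, 26 with an offset of 20 CPM and 116 with 20 UMIs. At 3 weeks the 33 higher genes became 60 when scaled without ribosomal, mitochondrial, Malat1 and Gm42418 UMIs, 54 relative to the median and 75 with 20 UMIs, and the 104 lower genes became 161 with 20 UMIs.

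Of the named genes' log2 ratios under the alternatives, 382 stayed within their counting interval, 418 moved beyond it without a change of sign and 16 reversed. At 2 weeks Lor became -0.61 with thinned barcodes and -0.29 both with keratins of at least 1% of UMIs and with spinous and granular genes at or under 1% (chosen after seeing the data), Meg3 0.54 without barcodes over 0.2% fibroblast UMIs, and Hist1h1b 0.36 and Hist1h2ae 0.03 with thinned barcodes. At 3 weeks, with at least 4 and 5 markers, Lor became -0.55 and -1.03, Crct1 -0.10 and -1.27, Asprv1 -0.08 and -1.34 and Flg2 -1.34 and -1.49, and with at least 5, Csta1 -0.59 and Elovl4 -0.57. The cause was not tested. No paired analysis was possible because each group has 1 library. A difference between animals, ages or library preparations cannot be told apart from one between genotypes at any depth.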
